A study of Homo sapiens with 6 samples.

Results

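The cyclins and kinases that carry cells from G1 into S phase were followed in 6 RNA-seq libraries of MDA-MB-231, a triple-negative breast cancer (TNBC) cell line. The members were the 9 genes CCND1, CCND3, CDK4, CDK6, CCNE1, CCNE2, CDK2, CCNA2 and CDC25A, taken as the rows with exactly these symbols in both count tables, and all 9 were found among 41471 symbols in the knockdown table and 34157 in the inhibitor table. The first table held a control line with a scramble shRNA beside the lines CDK16-sh1 and CDK16-sh2, which stably express either of 2 hairpins against CDK16 from a lentiviral vector with a GFP reporter and were sorted by flow cytometry. The second compared cells given the solvent DMSO with cells given rebastinib (Reb) at 1 or 5 μM for 48 h. Rebastinib is a kinase inhibitor that the study used to block the binding of CDK16 to its activator cyclin Y, and it is also known as an inhibitor of ABL and TIE2. The design had 1 library for each of the 6 conditions. No condition therefore has a replicate, and a difference between 2 libraries cannot be told apart from the spread between cultures. The intervals of log2 fold changes below are 95% exact binomial intervals. Those of changes in a ratio of 2 genes are 95% normal approximations from the counts. Both cover counting error only, since there are no replicates, and reads were counted without molecular identifiers.

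D-type cyclins are made in response to growth signals and bind CDK4 or CDK6, and these complexes begin to phosphorylate the retinoblastoma protein. Phosphorylated retinoblastoma protein releases E2F transcription factors, which raise the transcription of E-type cyclins, cyclin A2 and other S phase genes. Cyclin E then activates CDK2, cyclin A2 takes over as the CDK2 partner during S phase, and the phosphatase CDC25A removes the inhibitory phosphates from CDK2. In many cell types CCNE1, CCNE2 and CCNA2 transcripts rise and fall with the cell cycle, whereas CDK4 and CDK6 transcripts vary less. CDK16 itself is an atypical kinase of the same family, activated by cyclin Y rather than by the cyclins described here.

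The libraries held between 25838443 and 50303269 assigned counts, and the 9 genes together took between 0.0241% of them in the 5 μM library and 0.12% in the scramble library. CDK16 was checked first, because it was the hairpins' target. Its counts were 3223 with scramble, 1360 with sh1 and 846 with sh2, which after scaling put the hairpin lines at −1.52 and −1.82 on the log2 scale. Both libraries labelled as knockdown were thus below their control at the target. With rebastinib CDK16 had 4996, 4609 and 2797 counts at 0, 1 and 5 μM. These counts are not scaled, and the libraries held 50303269, 49367654 and 37655548 assigned counts in the same order. In the edgeR fit that set both doses against DMSO, the log2 fold change of CDK16 was 0.08, scaled as for the hairpin lines. It was −0.24 when scaled by library totals and −0.03 with no filter on low counts, so its sign depended on the processing. The libraries carried the marker genes of this line, with VIM at 177 to 833 RPKM (reads scaled by exon length and by library total) and AXL at 45.4 to 221 RPKM. The oestrogen and progesterone receptor genes were at most 0.0227 RPKM, while the third receptor gene ERBB2 was at 2.56 to 6.54 RPKM. Of the luminal genes CDH1 was at most 0.174 RPKM, but EPCAM was at 1.55 to 4.30 RPKM, highest at 5 μM with a log2 fold change of 1.86, and GATA3 at 0.596 to 3.75 RPKM. Leukocyte genes were at most 0.0847 RPKM. The endothelial genes PECAM1 and CDH5 were at most 0.406 RPKM, with 154, 53 and 4 and 122, 24 and 11 counts at 0, 1 and 5 μM, 2-fold lower at both doses, and the part of these in the members' values was not tested. The 5 μM library stood apart from the other inhibitor libraries. Its 100 highest genes took 35.3% of counts against 24.3% in DMSO, and its mitochondrial genes took 16.4% against 7.19%. CDK16-sh2 had 31.3% and 16.2% by the same measures, against 25.8% and 11.3% in scramble. In bulk RNA, fewer cells in a cell cycle phase and less RNA per cell cannot be told apart.

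The upstream sequences of the E-type cyclin, the A-type cyclin and the phosphatase are shown because these genes were at least 2-fold lower at 5 μM. That of CDK4 is shown because it was not with the scaling used for the main values, although with library totals it was, at −1.30. Each run is the 250 bases before the RefSeq transcription start in GRCh38.p14, written 5′ to 3′ on the strand of the gene. The windows are chr19:29811741-29811990 on the plus strand for CCNE1, and on the minus strand chr4:121823884-121824133 for CCNA2, chr3:48188418-48188667 for CDC25A and chr12:57752311-57752560 for CDK4. Capitals mark every match, on either strand, to 5 motifs. These were E2F (the 4 words TTTCGCGC, TTTGGCGC, TTTCCCGC and TTTGCCGC), the CCAAT box bound by NF-Y (CCAAT), the cyclic AMP response element or CRE (TGACGTCA), the E-box bound by MYC and related factors (CACGTG) and the GC box bound by SP1 (GGGCGG).
CCNE1: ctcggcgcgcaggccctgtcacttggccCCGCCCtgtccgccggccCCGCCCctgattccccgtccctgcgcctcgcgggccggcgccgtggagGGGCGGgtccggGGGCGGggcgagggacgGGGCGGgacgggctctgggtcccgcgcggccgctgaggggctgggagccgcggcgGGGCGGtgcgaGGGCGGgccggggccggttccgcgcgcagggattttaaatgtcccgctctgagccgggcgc
CCNA2: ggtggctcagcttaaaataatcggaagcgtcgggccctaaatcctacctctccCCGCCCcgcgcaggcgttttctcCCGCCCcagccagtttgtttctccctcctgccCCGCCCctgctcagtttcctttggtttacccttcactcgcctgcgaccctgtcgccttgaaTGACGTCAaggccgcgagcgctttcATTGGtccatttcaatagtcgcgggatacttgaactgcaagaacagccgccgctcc
CDC25A: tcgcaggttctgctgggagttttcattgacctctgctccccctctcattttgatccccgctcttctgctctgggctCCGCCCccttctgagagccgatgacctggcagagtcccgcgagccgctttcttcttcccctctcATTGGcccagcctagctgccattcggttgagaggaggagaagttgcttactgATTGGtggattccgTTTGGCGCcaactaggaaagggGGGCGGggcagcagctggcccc
CDK4: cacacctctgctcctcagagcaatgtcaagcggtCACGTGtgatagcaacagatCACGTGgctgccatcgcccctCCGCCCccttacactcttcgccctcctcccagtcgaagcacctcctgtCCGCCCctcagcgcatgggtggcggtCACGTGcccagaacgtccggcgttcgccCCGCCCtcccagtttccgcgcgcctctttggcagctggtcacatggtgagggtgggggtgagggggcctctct

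The CDC25A window held an E2F word, TTTGGCGC, at −44 to −37 from the start, with CCAAT boxes at −110 to −106 and −58 to −54. The CCNA2 window held a CRE at −81 to −74 and a CCAAT box at −56 to −52, elements for which the cyclin A promoter is known. The CCNE1 window held 7 GC boxes and none of the other 4 motifs. The CDK4 window held 3 E-boxes, at −216 to −211, −196 to −191 and −101 to −96. Among 35116 upstream windows in the same reference the E2F words were in 2.79%, CCAAT in 32.0%, the CRE in 1.65%, the E-box in 6.34% and the GC box in 42.6%. Of the 6 members with an entry, which include CCND3 and CDK6, 1 had an E2F word, 3 a CCAAT box, 1 a CRE, 1 an E-box and all 6 a GC box in at least 1 window, beside 3.40%, 37.0%, 2.03%, 7.73% and 46.2% of the 27305 genes in the reference. A match describes letters and not a bound site.

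Levels between genes were compared per length, as the deposited RPKM, and the 2 experiments were normalised separately. CCND1 was the highest of the 9 in every library. It stood at 140 RPKM in scramble, 128 with sh1 and 50.5 with sh2, and at 48.0 in DMSO, 53.8 at 1 μM and 23.2 at 5 μM. CCNA2, CDK4, CDK2 and CCND3 formed a middle range in both controls, between 10.9 and 51.8 RPKM. CDC25A, CCNE1, CCNE2 and CDK6 were lowest, between 2.79 and 9.01 RPKM in the controls. Within that lowest range CCNE1 and CCNE2 lay close together, at 4.60 and 4.49 RPKM in scramble and 5.25 and 4.36 in DMSO. In the 5 μM library the order had shifted, with CCNA2 below CCND3 at 2.81 RPKM, CDK6 above CCNE1 at 2.42 RPKM and CCNE2 last at 0.187 RPKM.

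**Figure D1:**
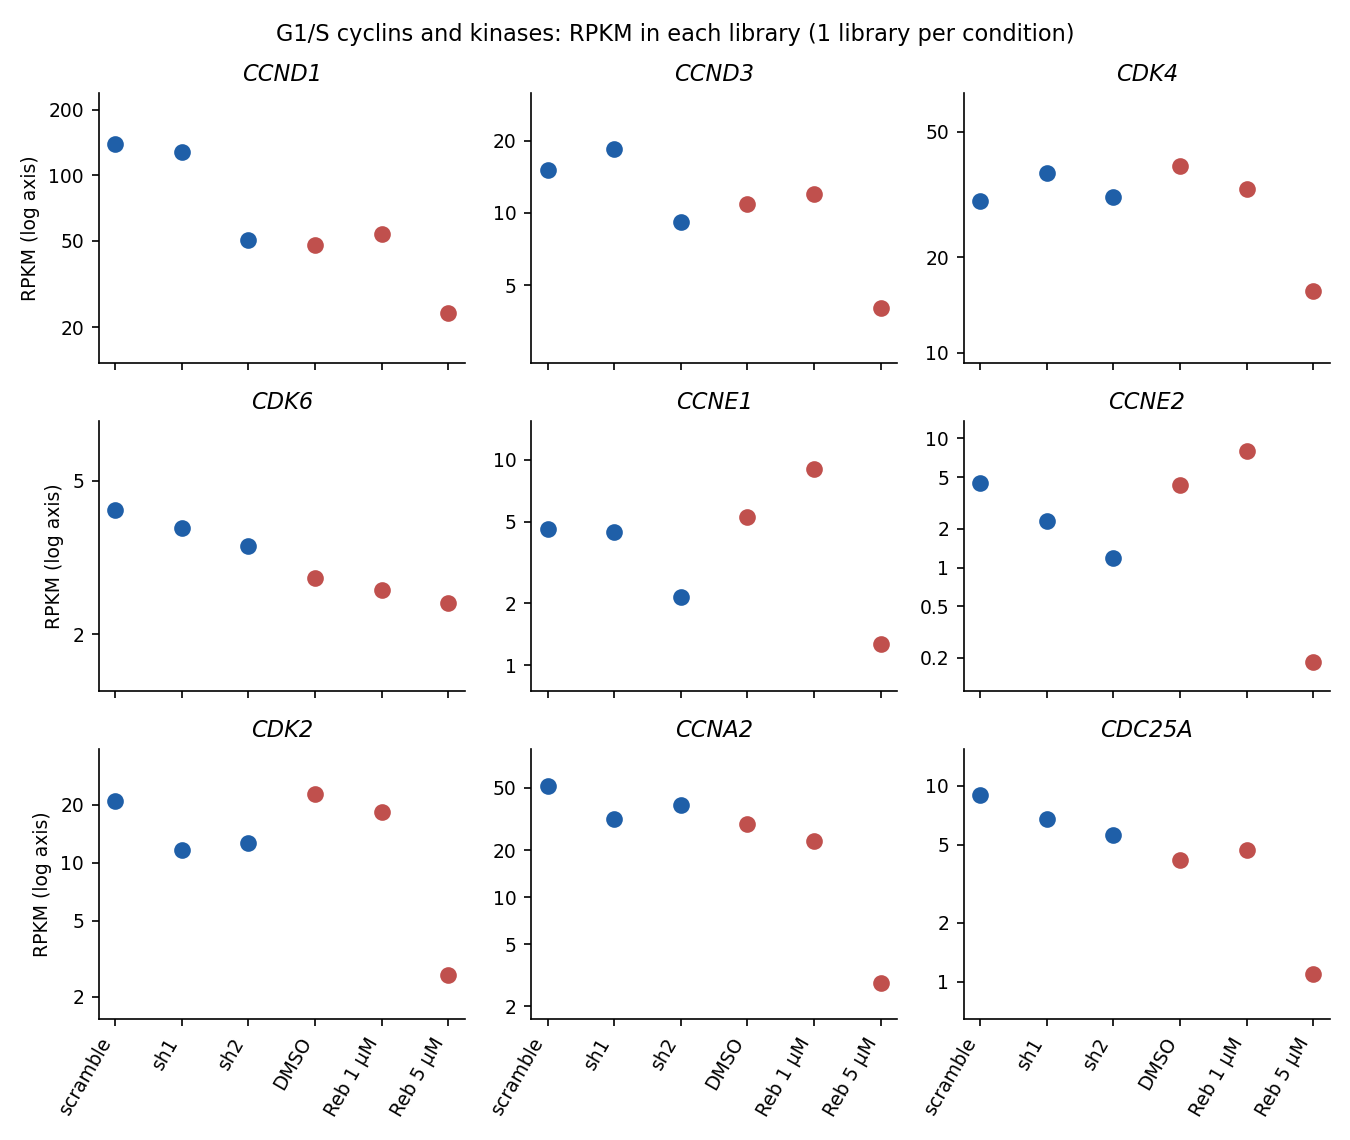
RPKM of each of the 9 genes (log axis) in the scramble, CDK16-sh1 and CDK16-sh2 libraries (blue) and the DMSO, 1 μM and 5 μM Reb libraries (red), with 1 point for each library and no error bar because no condition was replicated. CCNE2 spans the widest range, from 7.92 RPKM at 1 μM to 0.187 RPKM at 5 μM, while CDK6 stays between 2.42 and 4.19 RPKM.

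The first question was how the D-type cyclins and their kinases differed after CDK16 knockdown. CCND1, the cyclin that couples growth factor signals to CDK4 and CDK6, had 17423 counts in scramble, 19766 with sh1 and 6709 with sh2. Scaled by TMM (trimmed mean of M-values), the log2 fold change of CCND1 came to −0.09 (−0.12 to −0.07) for sh1 and −1.27 (−1.31 to −1.23) for sh2. The hairpins thus differed from each other at CCND1 by a log2 difference of −1.18 (−1.22 to −1.14), sh2 being the lower. CCND3, the D-type cyclin better known from lymphoid cells, had 2269, 3433 and 1457 counts in the same order. It was higher than scramble with sh1, at 0.32, and lower with sh2, at −0.53. CDK4 had 2460, 3756 and 2713 counts and was above scramble with both hairpins, at 0.33 and 0.25. CDK6, its close relative, had 1328, 1481 and 1143 counts and log2 fold changes of −0.12 and −0.11, and with sh2 the interval (−0.22 to 0.01) reached above 0.

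Among the genes that act later, CCNE2, CDK2, CCNA2 and CDC25A were lower than scramble with both hairpins. CCNE2 had 510 counts in scramble, 324 with sh1 and 142 with sh2, or −0.93 (−1.14 to −0.73) and −1.73 (−2.02 to −1.47). It was the lowest of the 9 in both with TMM scaling, but with sh1 it was at −0.54 and CDK2 at −0.92 once GC and length trends were removed. CCNE1 had 303, 363 and 151 counts and was at −0.02 (−0.24 to 0.21) with sh1 and −0.89 (−1.19 to −0.61) with sh2, so that the interval for sh1 covered 0. CDK2, the kinase both E-type cyclins activate, had 2108, 1444 and 1355 counts, or −0.82 and −0.53. CCNA2 had 3747, 2824 and 2995 counts, or −0.68 and −0.22. For these last 2 genes sh1 gave the lower value, by a log2 difference of 0.29 for CDK2 and 0.47 for CCNA2 between the hairpins, the opposite order to that of CCND1, CCND3, CCNE1 and CCNE2. CDC25A had 958, 888 and 633 counts and log2 fold changes of −0.39 and −0.49.

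**Figure D2:**
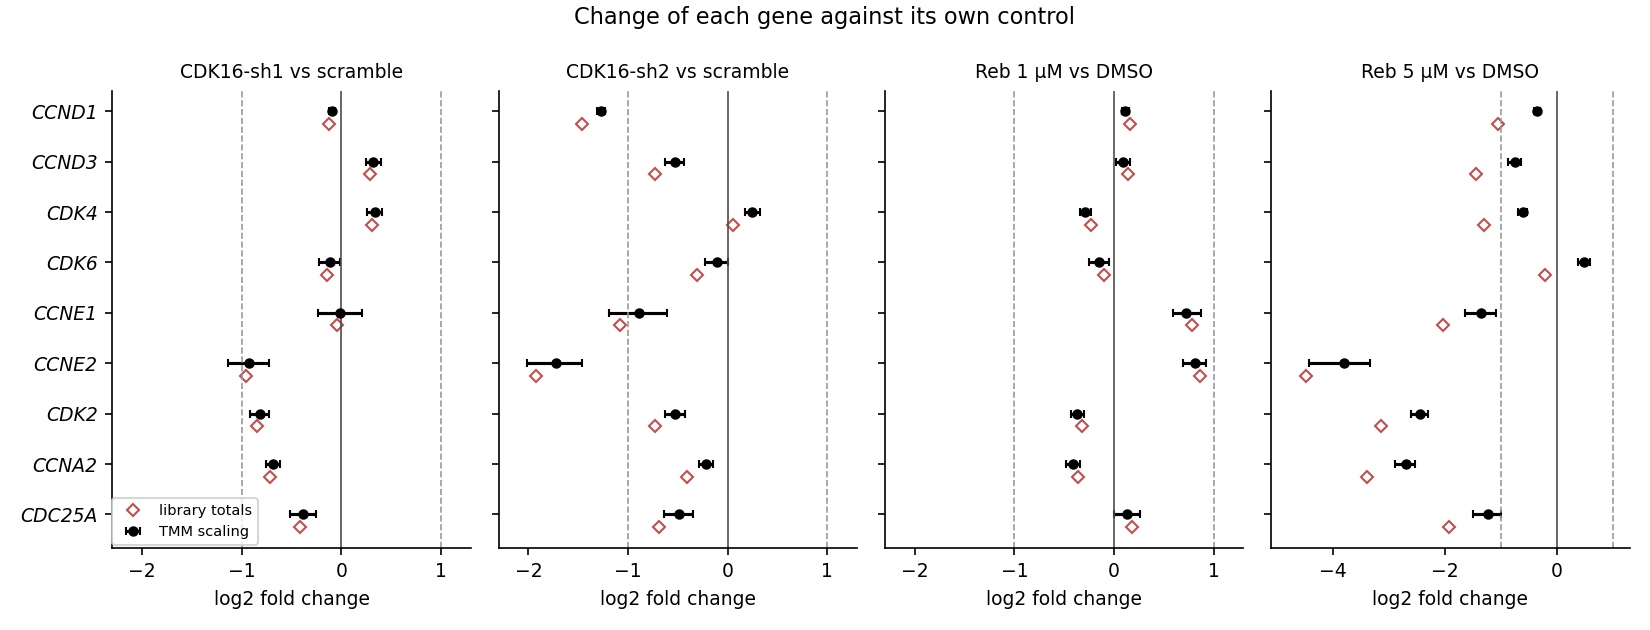
Log2 fold change of each gene against its own control in the 4 treated libraries, with TMM scaling (black points, bars are 95% intervals for counting error only) and with library totals (open diamonds); dashed lines mark 2-fold, and the Reb 5 μM panel has a wider horizontal axis. CCND1 at −1.27 and CCNE2 at −1.73 pass 2-fold with sh2, and CCNE1, CCNE2, CDK2, CCNA2 and CDC25A pass it at 5 μM.

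With sh1 none of the 9 was 2-fold lower, where 6.86% of the 15295 genes tested were, and none was 2-fold higher, where 4.33% were. With sh2 CCND1 and CCNE2 were 2-fold lower, 2 of 9 against 7.62% of genes, and 0 of 9 were 2-fold higher against 2.2%. With library totals CCNE1 joined them, 3 of 9 against 11.1%, and lower calls made up 91.8% of all calls against 77.6% with TMM. Counting any amount, 7 of the 9 were lower than scramble with both hairpins (all but CCND3 and CDK4, with CCNE1 being at only −0.02 with sh1 and CDK6 turning to 0.40 and 0.09 with GC and length trends removed), beside 30.9% of genes, and CDK4 alone was higher with both, beside 32.2%. The median log2 fold change over the 9 was −0.12 with sh1 and −0.53 with sh2, against −0.002 and 0.02 over all genes tested. In the tests that follow the only spread is that between the hairpins, so they do not measure the spread between cultures. Treating both hairpin libraries as 1 group against scramble, edgeR's quasi-likelihood test (1 residual degree of freedom) called 0 genes, 0% of 15295, at a Benjamini-Hochberg adjusted p of 0.05 and 2-fold, with 382 at an unadjusted p under 0.05. DESeq2 also called 0, with 233 at an unadjusted p under 0.05. By edgeR CCNE2 was the member with an unadjusted value under 0.05, and its Benjamini-Hochberg adjusted p by the edgeR fit was 0.9997.

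At 1 μM rebastinib the E-type cyclins were higher than in DMSO. CCNE2 had 964 counts in DMSO and 1719 at 1 μM, a log2 fold change of 0.81 (0.70 to 0.93), and CCNE1 had 674 and 1136 counts, 0.73 (0.59 to 0.87). Only 2.70% of the 15655 genes tested had a value as high as that of CCNE2, and 3.50% as high as that of CCNE1. The kinase and the later cyclin lay on the other side of 0. CDK2 had 4474 and 3527 counts, −0.37 (−0.43 to −0.30), and CCNA2 had 4161 and 3178 counts, −0.41 (−0.48 to −0.35). CDK4 was also lower, with 6182 and 5154 counts and a log2 fold change of −0.29, as was CDK6 at −0.15. CCND1, CCND3 and CDC25A were at 0.11, 0.09 and 0.13, and the interval for CDC25A (−0.002 to 0.27) covered 0. No member was 2-fold lower, where 1.92% of genes were, or 2-fold higher, where 1.28% were.

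At 5 μM both E-type cyclins, their kinase, cyclin A2 and CDC25A were more than 2-fold below DMSO. CCNE2 was down to 31 counts, a log2 fold change of −3.80 (−4.42 to −3.34) or 14.0-fold, and 0.965% of genes were as low or lower. CCNE1 had 122 counts, −1.35 (−1.65 to −1.08). Both therefore lay above DMSO at the lower dose and below it at the higher, and between 1 and 5 μM the log2 difference was −4.61 (−5.22 to −4.15) for CCNE2 and −2.08 (−2.37 to −1.82) for CCNE1. CCNA2 had 296 counts, −2.70 (−2.88 to −2.53), and CDK2 had 381, −2.44 (−2.60 to −2.29). CDC25A had 169 counts, −1.24 (−1.49 to −1.003).

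The cyclin D side of the pathway differed less from DMSO at 5 μM. CCND1 had 11651 counts in DMSO, 12818 at 1 μM and 4219 at 5 μM, a log2 fold change of −0.36 at the higher dose. CCND3 had 3187, 3451 and 876 counts, or −0.75 at 5 μM, and CDK4 had 1874 counts there, or −0.61. CDK6 had 1723, 1580 and 1116 counts, and it was the 1 member above DMSO at 5 μM, at 0.48 (0.37 to 0.59). That sign depended on the scaling: with library totals CDK6 was at −0.21, and CCND1, CCND3 and CDK4 were at −1.05, −1.44 and −1.30. The TMM factor of the 5 μM library was 0.718, against 1.16 for DMSO. With library totals the median over all genes moved from −0.07 to −0.75, while the median of the 9 moved from −1.24 to −1.92.

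With TMM scaling 5 of the 9 were 2-fold lower at 5 μM, beside 27.2% of all genes tested, and 0 of 9 were 2-fold higher, beside 23.6%. With library totals 8 of 9 were 2-fold lower, beside 43.4%, and lower calls made up 78.7% of all calls against 53.5% with TMM. CDK2, CCNA2 and CDK4 were lower at both doses by any amount, 3 of 9 beside 30.9% of genes, and 0 of 9 were higher at both, beside 29.3%. In the fit of both doses together, described next, the only spread is that between the doses. In the fit with dose as a linear term it is the departure of the 3 libraries from a straight line. Neither measures the spread between cultures, and CCNE2, at 0.81 at 1 μM and −3.80 at 5 μM, does not follow such a line. The edgeR quasi-likelihood fit that set both doses together against DMSO called 12 genes, 0.0767% of those tested, and 0 of the 9 members (Benjamini-Hochberg adjusted p = 1.00 for each). With log2(dose + 1) as a linear term instead, edgeR called 3 members lower, beside 11.1% of all genes called lower. These were CCNA2 (adjusted p = 0.00201), CCNE2 (adjusted p = 0.00353) and CDK2 (adjusted p = 0.00422), and this fit also rests on 3 libraries with 1 residual degree of freedom.

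**Figure D3:**
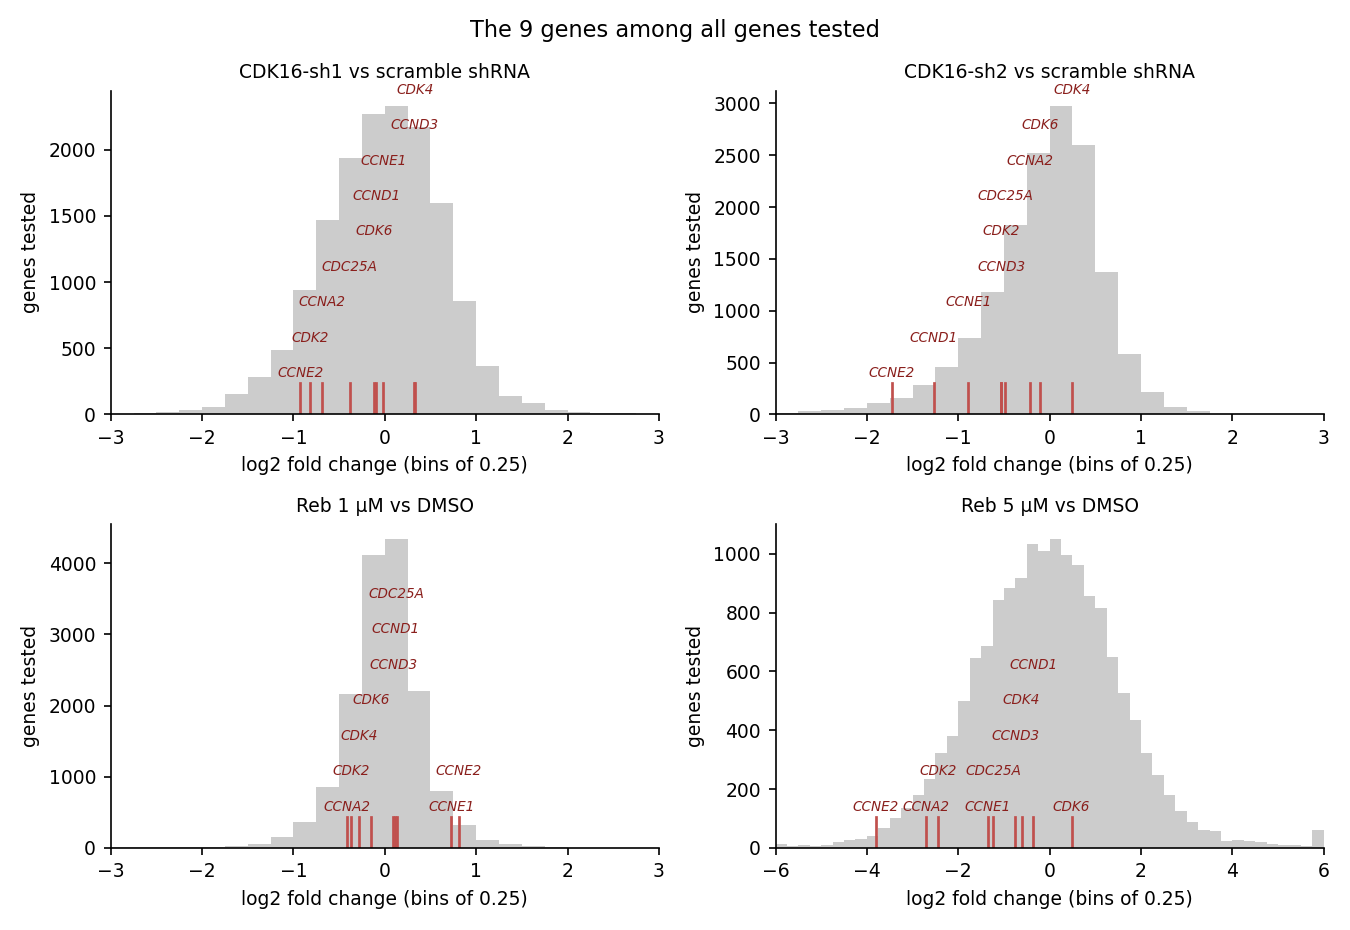
Number of genes tested in each 0.25 bin of log2 fold change (grey, TMM scaling), with the 9 genes marked in red, in each treated library against its control; the axes run from −3 to 3, with genes beyond not drawn, except at 5 μM, where they run from −6 to 6 and the end bins hold the genes beyond. CCNE1 and CCNE2 sit in the upper tail at 1 μM (0.73 and 0.81) and to the left of 0 at 5 μM (−1.35 and −3.80).

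Ratios within a library do not depend on scaling between libraries. CCND1 was 9.22 times CCND3 per length in scramble, 6.92 times in CDK16-sh1 and 5.53 times in CDK16-sh2, a change of the log2 ratio of −0.42 (−0.50 to −0.33) and −0.74 (−0.84 to −0.63). In the inhibitor libraries the same ratio was 4.39 in DMSO, 4.46 at 1 μM and 5.79 at 5 μM. CCNE2 was 0.976 times CCNE1 in scramble and 0.518 and 0.545 times with sh1 and sh2, changes of −0.92 (−1.21 to −0.62) and −0.84 (−1.23 to −0.45). The CCNE2 to CCNE1 ratio was 0.829 in DMSO and 0.878 at 1 μM, a change of 0.08 whose interval (−0.10 to 0.26) covered 0. At 5 μM it was 0.147, a change of −2.49 (−3.08 to −1.91), so CCNE2 was lower in proportion than its paralog. CDK6 was 0.139 times CDK4 in scramble, 0.102 and 0.109 times with the hairpins, 0.0720 times in DMSO, 0.0792 times at 1 μM and 0.154 times at 5 μM, the last a change of 1.10 (0.96 to 1.23). These ratios still carry differences in GC content and length between the paralogs. With those trends removed the log2 change of CDK6 to CDK4 turned from −0.45 to 0.26 with sh1 and went from −0.36 to −0.067 with sh2, that of CCNE2 to CCNE1 with sh1 went from −0.92 to −0.32, and all 3 ratios at 1 μM turned from small positive changes to −0.066, −0.080 and −0.17.

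The make-up of the 9 transcripts within a library also needs no scaling between libraries. CCND1, CCND3, CDK4 and CDK6 together made up 60.3% of the summed RPKM of the 9 genes in DMSO, 61.7% at 1 μM and 85.1% at 5 μM. In the knockdown experiment they made up 67.5% in scramble, 76.8% in CDK16-sh1 and 60.9% in CDK16-sh2, so the hairpins lay on either side of their control. CCNA2 took 17.7% of the sum in DMSO and 5.27% at 5 μM, and 18.5%, 12.9% and 25.2% in scramble, sh1 and sh2. Shares of 1 sum are tied together, so a higher share need not mean a higher level. With sh2 CCNA2 was at 38.9 RPKM against 51.8 in scramble, although its share was larger. CCND1 took 49.9% of the sum in scramble and 32.7% with sh2. CDK2 took 13.7% in DMSO and 4.88% at 5 μM. The E-type cyclins together were small in every library, with CCNE1 at most 5.49% and CCNE2 at most 4.82%, both at 1 μM.

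**Figure D4:**
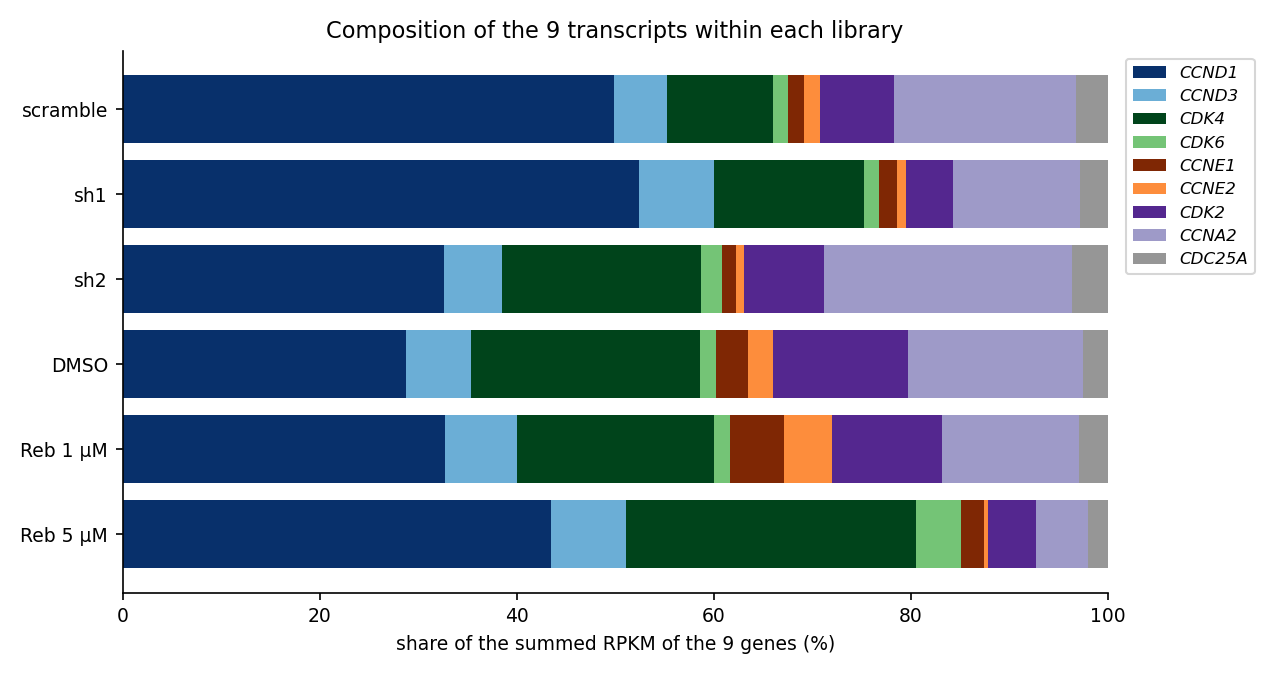
Share of the summed RPKM of the 9 genes (%) taken by each gene in each of the 6 libraries, as stacked bars that reach 100%. The blue and green segments of CCND1, CCND3, CDK4 and CDK6 fill 85.1% of the bar at 5 μM against 60.3% in DMSO.

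Several members share exon bases with a gene on the opposite strand, and the strand setting of the counting is not given in the sources used here. For CCNE2 (62 exon records on the minus strand), 1629 of 4397 exon bases, 37.0%, also belong to INTS8, a subunit gene of the Integrator complex. INTS8 had 865 counts in DMSO, 1195 with the lower dose and 78 with the higher, or 0.44 and −2.35 on the log2 scale, the same directions as CCNE2. In the knockdown libraries it had 518, 536 and 335 counts, −0.23 and −0.52. Neither gene's reads in the shared bases can be assigned here.

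For CDK4, 1369 of 3168 exon bases (43.2%) are shared with TSPAN31. TSPAN31 was at −0.12 at 1 μM and 0.42 at 5 μM, against −0.29 and −0.61 for CDK4. In the scramble, CDK16-sh1 and CDK16-sh2 libraries TSPAN31 had 806, 1580 and 908 counts, or 29.7, 48.0 and 36.0 CPM with TMM scaling. TSPAN31 was thus above scramble with both hairpins, as was CDK4 (log2 fold changes of 0.33 and 0.25). For CDK2, 565 of 3894 exon bases are shared with the antisense transcript RP11-973D8.4. These 565 are all the exon bases of RP11-973D8.4, so none of its counts come from bases outside CDK2 exons. Its counts stood at 0.863, 0.853 and 0.808 of those of CDK2 at 0, 1 and 5 μM, so that both were lowest in the 5 μM library. In the scramble, CDK16-sh1 and CDK16-sh2 libraries the proportion was 0.582, 0.379 and 0.661. Smaller parts of CCND1 (10.3%, with ORAOV1) and CCNA2 (9.08%, with EXOSC9) overlap in the same way. EXOSC9 was at 0.22 and −0.70 at 1 and 5 μM, where CCNA2 was at −0.41 and −2.70. The share of reads that these neighbours gave to a member was not tested.

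**Figure D5:**
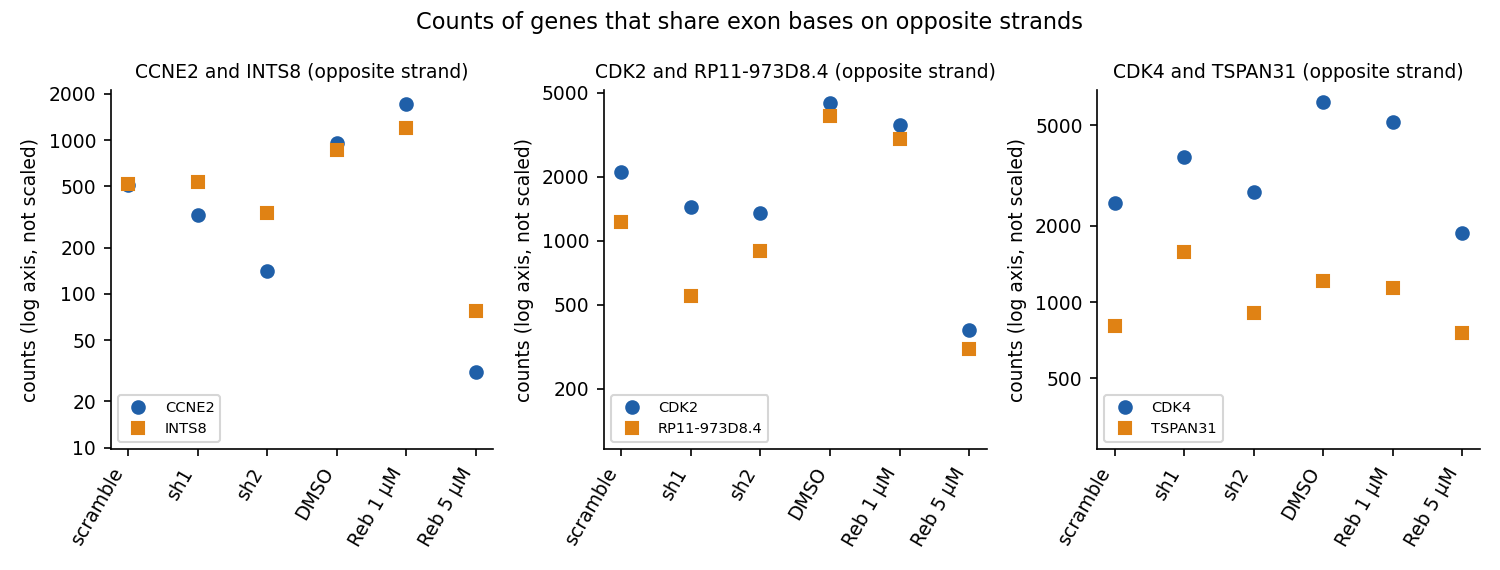
Deposited counts (log axis, not scaled for library size) of CCNE2 and INTS8, CDK2 and RP11-973D8.4, and CDK4 and TSPAN31 in each of the 6 libraries, circles for the cyclin or kinase and squares for the gene on the opposite strand. CCNE2 and INTS8 are at 31 and 78 counts at 5 μM, and CDK2 and RP11-973D8.4 at 381 and 308.

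The study's qPCR assay for CDK2 is printed because it reads a stretch outside the shared bases of the antisense transcript, which spans chr12:55966838-55967474. By qPCR the study reported significantly lower CDK2 expression after rebastinib treatment and after CDK16 knockdown. Both primers lie in exon 7, in coding sequence, of a CDK2 transcript in GENCODE 29 and match 7 of the 12 CDK2 transcripts and no other gene. The forward primer is at chr12:55971137-55971159 and the reverse primer, which reads the minus strand, at chr12:55971206-55971226, for a product of 90 bases.
CDK2 forward: ccaggagttacttctatgcctga
CDK2 reverse: ttcatccaggggaggtacaac

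The members lie on different chromosomes apart from CDK2 (chr12:55966769-55972784, plus strand) and CDK4 (chr12:57747727-57756013, minus strand). CCND1 is at chr11:69641087-69654474 and CCNE1 at chr19:29811898-29824308, both on the plus strand. The minus strand holds CCND3 at chr6:41934933-42050357, CDK6 at chr7:92604921-92836594, CCNA2 at chr4:121816444-121823933 and CDC25A at chr3:48157146-48188402. All positions are in GRCh38 and span the gene models in the deposited tables. GC content of the exons separated the members, with CCNE2 at 36.9%, CDK6 at 39.5% and CCNA2 at 42.1% against 50.3% to 56.2% for the other 6. Over all genes tested, log2 fold change went with GC content at r = 0.44 for sh1, 0.12 for sh2, −0.30 at 1 μM and −0.20 at 5 μM, a correlation across genes that are not independent replicates. After a GC and length trend was removed, CCNE2 was at −0.54 with sh1 and −1.60 with sh2, and at 0.61 at 1 μM, and CDK6 with sh1 changed sign to 0.40.

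The 44 other genes of the G1/S machinery were taken in 7 groups, and they show where the members sit in the pathway. With sh1, 4 of the 40 tested were 2-fold lower and 1 was 2-fold higher, beside 6.86% and 4.33% of all genes. With GC and length trends removed these counts became 0 and 3, beside 5.16% and 2.43% of all genes. The lower ones were the pocket protein genes RB1, RBL1 and RBL2, whose products hold back E2F, and SKP2, which directs the CDK inhibitor p27 to degradation. RB1 had 1221 counts in scramble and 589 with sh1 (−1.32), and SKP2 had 645 and 337 (−1.21). The higher one was the third D-type cyclin, CCND2, with 93 and 339 counts (1.57). With sh2, 4 of 40 were lower and 0 higher, beside 7.62% and 2.2% of all genes. The lower ones were RBL1, the E2F partner TFDP1 (3347 and 1017 counts, −1.61), E2F2 (116 and 25 counts, −2.03) and the checkpoint kinase CHEK1 (1456 and 623 counts, −1.12). RBL1 was the 1 gene of the 40 past 2-fold with both hairpins, at 1199 counts in scramble, 687 with sh1 and 457 with sh2 (−1.08 and −1.28), though not with sh1 once GC and length trends were removed. Over all genes tested, 1.44% were 2-fold lower with both hairpins. The medians over the 40 genes were −0.03 and 0.09.

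With rebastinib 41 of these 44 genes were tested. At 1 μM 2 were 2-fold lower and 0 higher, beside 1.92% and 1.28% of all genes, and both were CDK inhibitors. CDKN1A, which encodes p21, had 1666 counts in DMSO, 670 at 1 μM and 270 at 5 μM, and was past 2-fold at both doses (−1.33 and −1.51). Over all genes tested, 1.08% were 2-fold lower at both doses. CDKN1C had 72, 26 and 104 counts. CDKN1B, which encodes p27, was at −0.64 at 1 μM, and SKP2 was at 0.85, with 438 and 805 counts. At 5 μM 11 of 41 were 2-fold lower and 5 higher, beside 27.2% and 23.6% of all genes. With library totals 17 were lower and 1, CDKN2D, was higher, beside 43.4% and 11.7%. In the group that sets and removes inhibitory phosphates on CDKs, 4 of 5 genes were 2-fold lower with TMM scaling, and all 5 were below DMSO. In it CDC25B had 5914 and 327 counts in DMSO and at 5 μM (−3.06), and CDC25C had 697 and 71 (−2.17). WEE1 and PKMYT1, the kinases that add those phosphates, were at −1.86 and −2.11. E2F1 and E2F2 were at −2.13 and −2.09, RB1 and RBL1 at −1.39 and −2.05, and CDKN2C and CDK3 at −1.84 and −1.09. Those higher with TMM scaling were CDKN2D, which encodes the CDK4 and CDK6 inhibitor p19 (2436 and 5722 counts, 2.34), CDKN1C and the ligase genes SKP1, FBXO31 and AMBRA1 (1.69, 1.53 and 1.35). AMBRA1 is known for directing D-type cyclins to degradation.

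Over the 4 log2 fold changes, CDK2 and CCNA2 were the closest pair of members, at a Euclidean distance of 0.432. CCNE2 and CDK6 were the farthest apart, at 4.75. Of 10554 genes whose mean reached 5 CPM in both experiments, the 2 nearest to each member lay between 0.0902 and 0.674 away. MIR137HG and ZNF804A were nearest to CCNE1, and FAM111B and RP11-435D7.3 to CCNE2, the last 2 being the most distant neighbours in the set. TNS3 and NEK2 were nearest to CDK2, IQGAP3 and MARK4 to CCNA2, and EML6 and SRPK1 to CDC25A. GLE1 and CLCN4 were nearest to CCND1, NANS and ADCY9 to CCND3, TCF3 and PLK3 to CDK4, and CRAMP1 and USP5 to CDK6. The treated libraries of an experiment share 1 control, which enters 2 of the 4 values. The 4 values were not rescaled, and over all genes tested they differed in spread. Their 10th to 90th percentiles ran from −2.01 to 1.82 at 5 μM and from −0.49 to 0.46 at 1 μM. With the hairpins they ran from −0.86 to 0.75 (sh1) and from −0.87 to 0.61 (sh2). The 5 μM value thus carries the most weight in these distances.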

How the data were processed

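RNA was measured by stranded mRNA sequencing on the HiSeq X 10, with 1 library for each condition. Per the labels, the submitters' processing notes name Trimmomatic, featureCounts, Subread 1.5.1 and GRCh38; the aligner is not given in the sources used here. The authors deposited 1 table for each experiment with raw counts per gene and RPKM per gene, which equal counts divided by exon length and library total. Here genes whose mean reached 1 CPM were kept, scaled by TMM in edgeR 4.0.16 (R 4.3.3) and compared as log2 CPM with a prior count of 2. The 2-fold threshold and edgeR follow the study's methods. Both treated libraries were also set against their control in edgeR's quasi-likelihood framework, with p-values adjusted by Benjamini-Hochberg. The spread in these fits is that between hairpins or between doses. The functions for TMM scaling, log2 CPM, the quasi-likelihood test and the exact binomial intervals were tested on simulated data. Alternatives were DESeq2 1.42.0 and its size factors, library totals, RPKM plus 0.1, no filter, a prior count of 0.5, GC and length trends removed, a 1.5-fold threshold, dose as a linear term, and 1 fit over all 6 libraries. The text names all members, CDK16, the marker genes, the pathway genes past 2-fold or among the 3 largest changes in a library, the 2 nearest genes to each member and genes sharing their exons. Members and lists were chosen with earlier results of these data known. Promoter motifs and overlapping genes were added after the data were seen. Labels do not say whether libraries came from separate cultures.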

Additional observations from a re-analysis of the deposited data

How the results depend on the processing

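No replicate could be left out and no paired analysis was possible because each condition had 1 library. For the members' log2 fold changes, DESeq2 size factors, no filter on low counts and a prior count of 0.5 changed no sign and moved no member past 2-fold. With library totals the median over the members was −0.73 with sh2 and −1.92 at 5 μM, and 8 members were 2-fold lower at 5 μM, beside 43.4% of all genes. With RPKM plus 0.1 these values were −0.72, −1.84 and 8, beside 41.5%. CCNE1 with sh2 passed 2-fold (−1.08) under library totals. With a 1.5-fold threshold 3 members were lower with sh1, beside 18.8% of all genes, and 2 higher at 1 μM, beside 6.09%. With GC and length trends removed, the changes of the log2 ratios of CCND1 to CCND3, CDK6 to CDK4 and CCNE2 to CCNE1 were −0.28, 0.26 and −0.32 with sh1, −0.066, −0.080 and −0.17 at 1 μM, and 0.14, 0.74 and −3.17 at 5 μM, and that of CDK6 to CDK4 was −0.067 with sh2. Of these, the change of CDK6 to CDK4 with sh1 and all 3 at 1 μM turned in sign, and the cause was not tested. The sign of CDK6 changed with both hairpins (0.40 and 0.09) after the trends were removed, and at 5 μM (−0.21) under library totals. With dose as a linear term edgeR called 3 members, all lower, beside 11.1% of all genes called lower. With 1 library for each condition the data cannot show whether any of these differences exceeds the spread between cultures.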
